A study of Mus musculus with 27 samples.

Results

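The 8 genes described here encode receptors, junction proteins and other surface or secreted proteins by which endothelial cells, the lining of blood vessels, are recognised: Kdr, Flt1, Tek, Tie1, Cdh5, Pecam1, Emcn and Egfl7. They were found by the array platform's gene symbols, and they are 8 of the 13297 genes tested, measured by 15 of the 45101 probe sets on the array. A gene's level is that of its strongest probe set, by the mean over all 27 arrays, and all 8 passed the filter on low values. Kdr, Tek, Tie1, Pecam1 and Emcn have 1 probe set each, Cdh5 has 2, and Flt1 and Egfl7 have 4 each. The further probe sets of Cdh5, Flt1 and Egfl7 served as a check.

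The samples were total RNA of the mouse embryonic stem cell line AB2.2, differentiated as embryoid bodies, the cell aggregates in which stem cells form early tissues of all kinds. All cells, controls included, carried a lentivirus that makes enhanced green fluorescent protein and a short hairpin RNA (shRNA), and were sorted on that fluorescence before differentiation. In the Sox17 shRNA arm the hairpin targets Sox17, a transcription factor of endoderm and of vascular endothelium, and in the control arm it targets firefly luciferase, which mouse cells lack. Each arm has 2 arrays on each of 7 days of differentiation, day 0 and day 2, then days 4 to 6, and days 8 and 10, except that the Sox17 shRNA arm has 1 array at day 0, its other replicate having failed. Embryoid bodies grew in hanging drops and were moved to culture plates between the harvests of days 4 and 5, so the later days come from attached outgrowths. The labels call the 2 arrays of a group biological replicates. They do not say whether these are separate transductions, nor how many hairpins against Sox17 were used, and the p-values measure only the spread between these arrays.

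Endothelial cells arise from mesoderm, in the embryo and in embryoid bodies, partly from precursors shared with blood. Vegf ligands act on them through Kdr, the main signalling receptor, which early mesoderm already carries, while Flt1 binds the same ligands tightly with weak signalling and limits what reaches Kdr. Angiopoietins act through Tek (also called Tie2), and Tie1 is its partner receptor without a ligand firmly assigned to it. Cdh5 (VE-cadherin) holds the adherens junctions between endothelial cells. Pecam1 sits at the same contacts, and undifferentiated stem cells, platelets and leukocytes carry it too. Emcn (endomucin) is a sialomucin of the endothelial surface, and Egfl7 is a protein that endothelial cells secrete into their matrix. RNA came from whole cultures, so fewer cells of a type and less RNA of a gene per cell cannot be told apart in any of the values below.

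Sox17 itself set the limits of the comparison between arms. It was at 10.30 and 10.66 (log2) in the control arrays of day 4 and at 5.53 and 9.39 in the Sox17 shRNA arrays, so replicate 2 of that day stood close to the controls. The difference on day 4 was −3.02 (SE 0.80, 8.12-fold, limma adjusted p = 0.0377), and day 10 gave −3.03 (8.18-fold, adjusted p = 0.0205). In between it was not called, with −1.45 on day 5, −0.60 on day 6 and −1.88 on day 8 (adjusted p = 0.307, 0.835 and 0.25). The average over these days was −2.00 (3.99-fold, adjusted p = 3.63e-04). Arrays also differed in hybridisation. The bacterial spike-in bioB lay at 8.86 to 9.37 on 9 arrays, which are the arrays before day 4 and replicate 1 of that day in both arms, and at 6.19 to 7.67 on all others. The difference between 3′ and 5′ actin probe sets, a sign of RNA quality, was highest in the Sox17 shRNA arrays of day 4 replicate 2 (0.86) and day 6 replicate 2 (0.75), against 0.33 to 0.55 on the rest. The part of these features in the results was not tested beyond the values given beside them.

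In the control arm the 8 genes followed different courses. Kdr and Flt1 were up by day 4, before plating. Tek, Tie1, Cdh5 and Emcn were low at days 4 and 5 and above all earlier arrays from day 6. Pecam1 started high in undifferentiated cells, fell, and partly returned from day 6, and Egfl7 moved little. Against day 0, limma called 2 of the 8 genes changed at day 2 (0 higher, 2 lower), where 32.1% of all genes were called (15.4% lower). For day 4 it called 4 (2 higher, 2 lower; 46.1% of all genes, 22.5% higher and 23.6% lower), and for day 5 it called 3 (1 higher, 2 lower; 57.4% of all genes, 25.1% higher and 32.3% lower). From day 6 it called 7 members on each day, 6 of them higher and 1, Pecam1, lower. Tie1, Cdh5 and Emcn, among the higher ones, passed the filter on low values only through arrays from day 6 on. The counts of higher members are thus not independent of the filter. The share of all genes called was then 63.1% (28.1% higher, 35.0% lower) on day 6, 72.2% (31.9% higher, 40.3% lower) on day 8 and 71.5% (31.5% higher, 40.0% lower) on day 10. The median difference over the members was 1.90 on day 6, 2.03 on day 8 and 1.40 on day 10, where the medians over all genes were −0.11, −0.14 and −0.13.

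**Figure D1:**
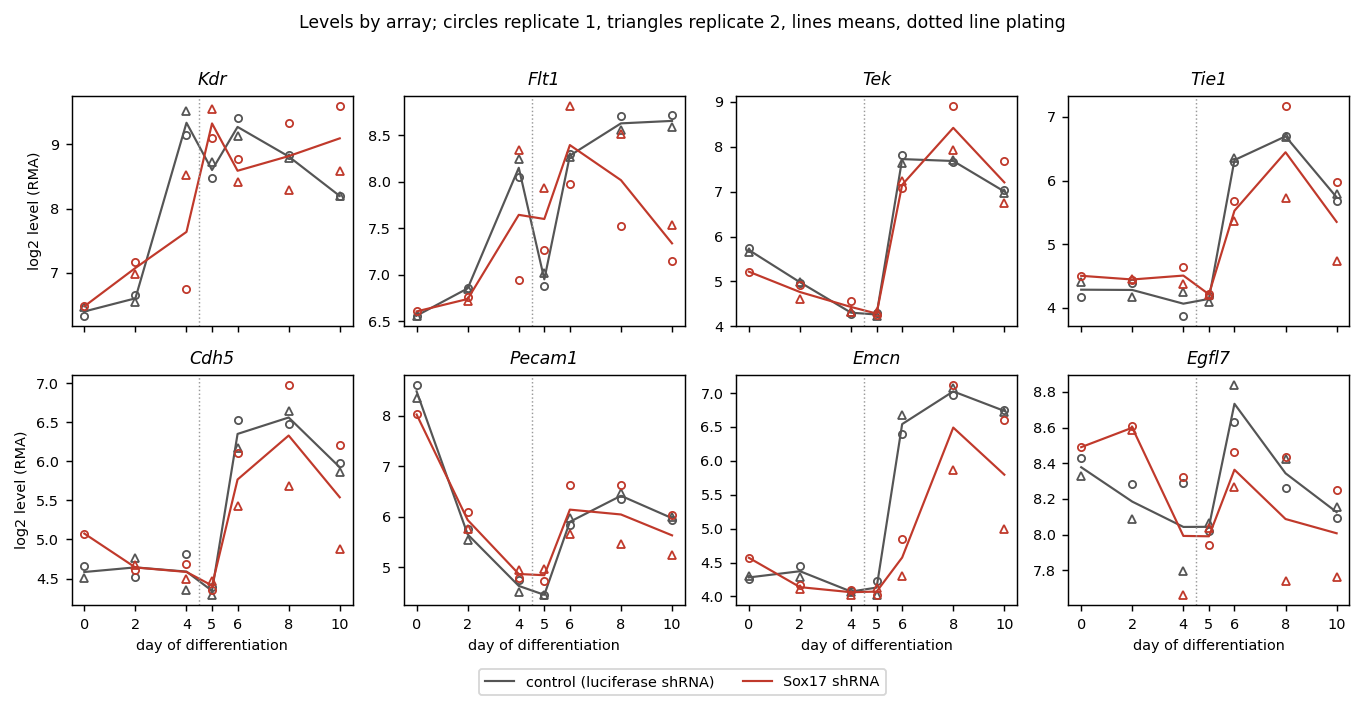
Log2 expression level of the 8 genes (1 panel each, each with its own scale) against the day of differentiation, for the luciferase shRNA control arm and the Sox17 shRNA arm. Circles are replicate 1 and triangles replicate 2, lines join the group means, and the dotted line marks plating. In the control arm Kdr and Flt1 are raised by day 4, while Tek, Tie1, Cdh5 and Emcn are near their lowest level at days 4 and 5 and raised from day 6.

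Of the Vegf receptors, Kdr was at 6.33 and 6.47 (log2, replicates 1 and 2) in the control arm on day 0 and 6.66 and 6.55 on day 2. It reached 9.15 and 9.52 on day 4, then 8.48 and 8.72 (day 5), 9.41 and 9.13 (day 6), 8.83 and 8.79 (day 8), and 8.20 and 8.19 (day 10). Every array from day 4 on was above every array of days 0 and 2, and the order of the days was 4, 6, 8, 5, 10, 2 and 0, with only days 4 and 6 overlapping as neighbours. The rise from day 0 was 2.93 at day 4 (SE 0.42, 7.64-fold, limma adjusted p = 1.47e-05) and still 1.79 at day 10 (3.47-fold, adjusted p = 9.74e-04). With a term for the bioB signal, which parts from the day only through day 4, the differences were 1.13 at day 5 (adjusted p = 0.0716) and 0.72 at day 10 (adjusted p = 0.222). Between arrays of like signal, day 4 replicate 1 was 2.75 above day 0.

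Flt1 was at 6.56 and 6.56 on day 0 and 6.86 and 6.85 on day 2. It stood at 8.05 and 8.25 on day 4, before plating, and at 6.88 and 7.02 on day 5. From then the pairs were 8.29 and 8.27 (day 6), 8.70 and 8.55 (day 8), and 8.72 and 8.59 (day 10). Its day 5 arrays lay just above those of day 2 and below both neighbouring days, and the day 5 arrays of Kdr were likewise below both neighbours. Against day 0 Flt1 was higher by 1.59 at day 4 (SE 0.36, 3.01-fold, limma adjusted p = 0.00137), by 0.39 at day 5 (adjusted p = 0.362) and by 2.10 at day 10 (4.27-fold, adjusted p = 5.46e-05). All 4 of its probe sets were called higher at days 4, 6, 8 and 10, with differences of 1.59 to 3.24 at day 4. With the bioB term the day 6 difference was 0.93 (adjusted p = 0.103).

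Of the Tie receptors, Tek was at 5.74 and 5.66 on day 0 and lower after that, with 4.97 and 4.99 (day 2), 4.28 and 4.32 (day 4), and 4.29 and 4.23 (day 5). It then stood at 7.82 and 7.63 (day 6), 7.67 and 7.70 (day 8), and 7.05 and 6.96 (day 10). Undifferentiated cells therefore showed more Tek signal than days 2 to 5, and every array from day 6 exceeded all earlier ones. Against day 0 it fell by 1.40 at day 4 (SE 0.26, 2.64-fold, limma adjusted p = 2.12e-04) and rose by 2.03 at day 6 (4.08-fold, adjusted p = 2.26e-06). The small fall at day 2 (−0.72, adjusted p = 0.0391) was not called without any 1 of the 4 arrays compared (−0.76 to −0.68, adjusted p = 0.105 to 0.153).

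Tie1 had no such early signal. It was at 4.17 and 4.40 at day 0 and between 3.88 and 4.39 at days 2, 4 and 5, then at 6.30 and 6.35 (day 6), 6.70 and 6.69 (day 8), and 5.68 and 5.80 (day 10). The early days overlapped one another and the late days did not, in the order 8, 6 and 10. Tie1 rose from day 0 by 2.04 at day 6 (SE 0.35, 4.10-fold, limma adjusted p = 7.27e-05) and 2.41 at day 8 (5.31-fold, adjusted p = 9.71e-06).

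The junction gene Cdh5 ran close to Tie1, with values between 4.29 and 4.82 on all control arrays of days 0 to 5, then 6.53 and 6.17 (day 6), 6.48 and 6.64 (day 8), and 5.98 and 5.86 (day 10). Days 6 and 8 overlapped and both were above day 10. The rise from day 0 was 1.77 at day 6 (SE 0.36, 3.40-fold, limma adjusted p = 4.03e-04) and 1.98 at day 8 (3.93-fold, adjusted p = 1.14e-04). The second Cdh5 probe set, which did not pass the filter on low values, gave 0.08 at day 6 and 0.04 at day 8 and was not called.

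Pecam1 took the opposite course at the start. It was at 8.60 and 8.36 on day 0, 5.75 and 5.55 on day 2, 4.75 and 4.51 on day 4, and 4.45 and 4.45 on day 5. Later it stood at 5.83 and 5.97 (day 6), 6.35 and 6.47 (day 8), and 5.94 and 6.00 (day 10). No later array came near those of day 0, and those of days 4 and 5 were the lowest. Against day 0 it was at −4.03 on the log2 scale at day 5 (SE 0.32, 16.3-fold lower, limma adjusted p = 7.64e-09) and at −2.07 at day 8 (4.19-fold lower, adjusted p = 1.73e-05). Pluripotency markers fell over the same days: the array mean of 8 of them (Pou5f1, Nanog and others) was 11.98 on both day 0 control arrays, 9.58 and 9.62 on those of day 4, and 7.62 and 7.65 on those of day 10.

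Emcn was at 4.26 and 4.30 at day 0, between 4.03 and 4.45 at days 2, 4 and 5, then at 6.40 and 6.68 (day 6), 6.98 and 7.07 (day 8), and 6.75 and 6.72 (day 10). The late days stood in the order 8, 10 and 6 without overlap, though days 10 and 6 were close. Emcn rose from day 0 by 2.26 at day 6 (SE 0.37, 4.79-fold, limma adjusted p = 4.57e-05) and by 2.74 at day 8 (6.70-fold, adjusted p = 4.33e-06). Between arrays of like bioB signal, day 6 was above day 4 replicate 2 by 2.48 for Emcn, 3.40 for Tek, 2.07 for Tie1 and 1.99 for Cdh5.

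Egfl7 was at 8.43 and 8.33 on day 0, 8.28 and 8.09 on day 2, 8.29 and 7.80 on day 4, and 8.02 and 8.07 on day 5. It stood at 8.63 and 8.84 (day 6), 8.26 and 8.42 (day 8), and 8.10 and 8.16 (day 10). Only the day 6 arrays lay above both of day 0. The difference from day 0 was not called on any day and was 0.36 at day 6 (limma adjusted p = 0.178, interval at 95% confidence −0.12 to 0.83). Its 4 probe sets gave 0.36 to 0.82 at that day, of which 3 were called higher.

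The largest change between neighbouring control days lay between days 5 and 6 for Tek, Tie1, Cdh5 and Emcn, so these neighbouring days were compared directly, a comparison chosen after seeing the data. The arrays of both days had bioB signals in the lower range. In the control arm 7 of the 8 genes rose in this step and 0 fell, where 17.9% of all genes were called (11.2% higher, 6.72% lower). This count is not independent of the filter on low values, which Tie1, Cdh5 and Emcn passed only through arrays from day 6 on. Tek rose 11.04-fold (log2 difference 3.46, SE 0.26, limma adjusted p = 5.04e-08), Emcn 5.32-fold (2.41, adjusted p = 2.48e-04), Tie1 4.54-fold (2.18, adjusted p = 3.59e-04) and Cdh5 4.02-fold (2.01, adjusted p = 9.63e-04). Pecam1 rose 2.73-fold (1.45, adjusted p = 0.00422). Flt1 rose 2.52-fold (1.33, adjusted p = 0.0153) and Egfl7 1.61-fold (0.69, adjusted p = 0.0421), and both calls were lost without any 1 of the 4 arrays (1.26 to 1.40, adjusted p = 0.0517 to 0.116 for Flt1; 0.59 to 0.79, adjusted p = 0.111 to 0.205 for Egfl7). Kdr, with 0.67 (adjusted p = 0.302), was not called.

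The promoters of 3 genes that rose in this step are printed to show the letters just before their starts. They were chosen because their windows lay wholly or almost wholly before the annotated gene, not by the size of the rise or the letters found. Factors of the ETS family, among them Etv2, Fli1 and Erg, are known regulators of endothelial genes, and Sox17 belongs to the SOX family. Capitals mark matches, on either strand, to AGGAAG or CGGAAG (ETS-type) and to ACAAT (SOX-type). The sequences are from RefSeq (GRCm38.p6), 5′ to 3′ on the gene's strand, and end where the annotated gene begins: Tie1 at chr4:118489850-118490099 (minus strand), Emcn at chr3:137340828-137341061 (plus strand) and the first start of Egfl7 at chr2:26580833-26581082 (plus strand).

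Tie1: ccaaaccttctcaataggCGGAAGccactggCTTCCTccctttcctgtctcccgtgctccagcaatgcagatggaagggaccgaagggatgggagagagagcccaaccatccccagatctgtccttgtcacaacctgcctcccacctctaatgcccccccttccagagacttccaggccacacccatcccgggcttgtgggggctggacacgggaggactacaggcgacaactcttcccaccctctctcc

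Emcn: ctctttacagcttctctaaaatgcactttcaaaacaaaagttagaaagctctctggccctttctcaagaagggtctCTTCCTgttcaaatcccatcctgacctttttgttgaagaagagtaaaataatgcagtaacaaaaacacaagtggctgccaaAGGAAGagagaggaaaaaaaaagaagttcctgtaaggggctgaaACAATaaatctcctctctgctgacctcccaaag

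Egfl7: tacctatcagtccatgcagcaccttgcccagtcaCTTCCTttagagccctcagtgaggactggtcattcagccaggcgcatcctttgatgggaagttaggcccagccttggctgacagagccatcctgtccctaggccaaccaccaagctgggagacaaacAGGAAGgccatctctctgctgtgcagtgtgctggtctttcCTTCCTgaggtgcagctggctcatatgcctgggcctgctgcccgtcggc

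In windows of 250 bases before the start, ETS-type letters were found in 4 of the 6 members with a promoter in the table, namely Flt1, Tie1, Emcn and Egfl7. SOX-type letters were found in Tek and Emcn. Tek and Flt1 also rose in the step but are not printed, since their windows lay largely or wholly inside the annotated gene. Kdr held neither, and Cdh5 and Pecam1 were not searched. Egfl7 has 3 promoters in the table. Counted by promoter, ETS-type letters were in 5 of the 8 member promoters and SOX-type letters in 2 of 8. Over all 32851 promoters of this length, 39.2% held ETS-type and 27.7% SOX-type letters, so the motifs are common. For Emcn the window searched runs 16 bases past the last base printed, since the start in the promoter table lies that far inside the annotated gene. Counted back from the annotated gene, its ETS-type matches began 158 and 77 bases before it and the SOX-type match 33 bases before it. The matches are letters in a window; binding was not measured.

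In the Sox17 shRNA arm the step from day 5 to day 6 was present for Tek, Tie1, Cdh5 and Pecam1 and small for Emcn. With the same added comparison, 4 of 8 genes rose and 0 fell, where 17.0% of all genes were called (9.81% higher). Tie1 and Cdh5 are among the 4, so this count too is not independent of the filter on low values. Tek went from 4.24 and 4.32 to 7.08 and 7.23, a rise of 2.87 (SE 0.26, 7.32-fold, limma adjusted p = 1.77e-06). Emcn went from 4.02 and 4.12 to 4.85 and 4.30, a difference of 0.50 (SE 0.37, adjusted p = 0.417), and replicate 2 of day 6 lay below the day 0 array of its own arm (4.57). Cdh5 rose by 1.36 (adjusted p = 0.0163), Tie1 by 1.31 (adjusted p = 0.0163) and Pecam1 by 1.30 (adjusted p = 0.00971). Leaving out 1 array removed these 3 calls in part. Tie1 was lost without any 1 of the 4 arrays (1.15 to 1.47, adjusted p = 0.0523 to 0.0895). Without replicate 1 of day 5, Cdh5 was at 1.30 (adjusted p = 0.106) and Pecam1 at 1.18 (adjusted p = 0.0926), and without replicate 1 of day 6 they were at 1.02 (adjusted p = 0.117) and 0.81 (adjusted p = 0.113). Flt1 differed by 0.80 (adjusted p = 0.146), Egfl7 by 0.37 (adjusted p = 0.297) and Kdr by −0.74 (adjusted p = 0.26).

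The difference between the arms in this step was itself tested, and 0 of 8 members were called by limma, against 0.707% of all genes. All 8 differences were negative, from −1.91 to −0.15, and 2 members had an unadjusted p under 0.05. Emcn had the greatest, −1.91 (SE 0.53, interval −3.02 to −0.80, adjusted p = 0.143), and Kdr followed with −1.40 (adjusted p = 0.46). For Tek the difference was −0.59 with an interval of −1.35 to 0.17. A smaller step in the Sox17 shRNA arm was thus not established for any member at this number of arrays.

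**Figure D2:**
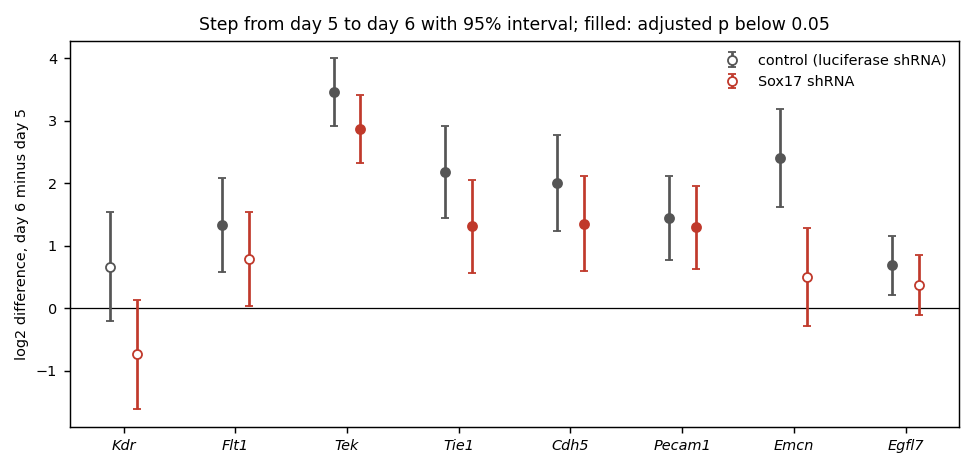
Difference in log2 level between day 6 and day 5 for each of the 8 genes, in the control arm and in the Sox17 shRNA arm, with 95% intervals from limma. Filled points have an adjusted p below 0.05. All but Kdr pass in the control arm, 4 genes pass in the Sox17 shRNA arm, and the intervals of Emcn in the arms do not meet, although the test of that difference did not pass after adjustment.

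Between the arms, Kdr was lower at day 4, Emcn at day 6 and on average over days 4 to 10, and Flt1 at day 10, and no member was called higher in the Sox17 shRNA arm on any day or on average. Limma called 1 member on day 4 (of all genes 5.14% were called, 1.81% lower), 1 on day 6 (5.20% of all genes, 2.36% lower) and 1 on day 10 (10.0% of all genes, 4.38% lower), each of them lower. It called 0 members on day 0 (1.89% of all genes), on day 2 (2.54%), on day 5 (9.39%) and on day 8 (4.82%). With 1 call at most among 8 genes, these counts do not set the members apart from the other genes, and the calls are given for what each gene did. Arms whose arrays did not overlap were common: on days 4, 5, 6, 8 and 10 this held for 33.3%, 52.3%, 46.1%, 51.0% and 61.5% of all genes, and for 3, 4, 6, 2 and 3 of the 8 members. On the days with 0 calls, an unadjusted p under 0.05 was reached by 0 members at days 0, 2 and 5 and by 1, Tek, at day 8.

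Emcn at day 6 was at 6.40 and 6.68 in the control arrays and at 4.85 and 4.30 in the Sox17 shRNA arrays. The arms did not overlap, and the Sox17 shRNA arrays were nearer to the early days than to the control. The difference was −1.97 (SE 0.37, 3.91-fold lower, limma adjusted p = 0.00332). It was called without any 1 of the 4 arrays (−2.24 to −1.70, adjusted p = 0.00978 to 0.0451) and in all 9 other settings (adjusted p = 8.18e-04 to 0.0356). Sox17 differed by −0.60 between the arms on that day, at 8.60 and 9.39 in the Sox17 shRNA arrays against 9.83 and 9.35. Its part in the Emcn difference was not tested. At day 8 the Sox17 shRNA arrays held 7.12 and 5.87 against 6.98 and 7.07 in the control, so replicate 1 had reached the control and replicate 2 had not. At day 10 they held 6.60 and 4.99 against 6.75 and 6.72, again with replicate 2 far below, and the difference of −0.94 was not called (adjusted p = 0.134). Without Sox17 shRNA replicate 1 of day 10 it was −1.75 (adjusted p = 0.00301). On average over days 4 to 10, with 10 arrays in each arm, Emcn was 1.63-fold lower (−0.70, SE 0.17, adjusted p = 0.0039), the only member of 8 called, where 12.2% of all genes were called lower. This call held without any 1 of the 20 arrays (−0.86 to −0.54, adjusted p = 5.8e-05 to 0.0106). The days that enter it gave −0.01 (day 4), −0.06 (day 5), −1.97 (day 6), −0.53 (day 8) and −0.94 (day 10).

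Kdr at day 4 was at 9.15 and 9.52 in the control arrays and at 6.75 and 8.52 in the Sox17 shRNA arrays. The arms did not overlap, yet the Sox17 shRNA arrays differed from each other by 1.77, and replicate 1, with the lower Kdr, also had the lower Sox17. Replicates 1 and 2 also differed in bioB signal (9.37 and 6.83) and in actin difference (0.35 and 0.86). The part of Sox17 or of these array features in the gap was not tested. The difference was −1.70 (SE 0.42, 3.24-fold lower, limma adjusted p = 0.0256). It was no longer called without control replicate 1 (−1.88, adjusted p = 0.0713), without control replicate 2 (−1.51, adjusted p = 0.14) and without Sox17 shRNA replicate 1 (−0.81, adjusted p = 0.206). Without Sox17 shRNA replicate 2 the difference was larger, at −2.58. Fitted on the 4 arrays of the day alone, the adjusted p was 0.512. The array mean of 7 early mesoderm markers lay at 8.81 and 8.86 in the control arm on this day and at 7.45 and 9.05 in the Sox17 shRNA arm, and Pdgfra (−1.61, adjusted p = 0.0377) and Mesp1 (−1.29, adjusted p = 0.0251) were the 2 of them that fell. The part of these mesoderm markers in the Kdr difference was not tested.

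After day 4 Kdr did not keep to that direction. At day 5 the Sox17 shRNA arrays were above the control, at 9.10 and 9.55 against 8.48 and 8.72 (0.72, limma adjusted p = 0.334). At day 6 they were below it, at 8.77 and 8.41 against 9.41 and 9.13 (−0.68, adjusted p = 0.469). At day 10 they were again above, at 9.59 and 8.59 against 8.20 and 8.19 (0.90, interval 0.02 to 1.77, adjusted p = 0.216). The arms did not overlap on any of these days, although none of the differences was called. Limma's F test for a change of the difference between arms over days 4 to 10 called Kdr alone of the 8 (F = 6.55, adjusted p = 0.0438), where 4.84% of all genes were called. That call was lost in 14 of the 20 fits that leave out 1 array (adjusted p up to 0.142), without the intensity trend (0.0505) and on only the groups compared (0.139).

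Flt1 at day 10 was at 8.72 and 8.59 in the control arrays and at 7.14 and 7.53 in the Sox17 shRNA arrays. Both Sox17 shRNA arrays were over 1 log2 unit below the control arrays. The difference was −1.32 (SE 0.36, 2.49-fold lower, limma adjusted p = 0.0246), and the 4 probe sets of Flt1 gave −1.47 to −1.22, of which 3 were called. Without control replicate 1 it missed the threshold (−1.25, adjusted p = 0.162), as it did without control replicate 2 (−1.38, adjusted p = 0.111) and without Sox17 shRNA replicate 1 (−1.12, adjusted p = 0.189). At day 8 the Sox17 shRNA arrays were at 7.52 and 8.51 against 8.70 and 8.55 (−0.61, adjusted p = 0.482), and at day 5 at 7.27 and 7.93 against 6.88 and 7.02 (0.65, adjusted p = 0.308). Flt1 and Kdr, which bind the same ligand, thus stood on opposite sides of the control at day 10.

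The mean of the arm difference at days 8 and 10 minus its mean at days 4 and 5 was called for 0 of 8 members by limma, against 9.81% of all genes called, and 2 members had an unadjusted p under 0.05. It was −1.04 for Flt1 (adjusted p = 0.079) and 0.94 for Kdr (adjusted p = 0.183). The Flt1 value was called without Sox17 shRNA replicate 1 of day 4 (−1.38, adjusted p = 0.00504) or replicate 2 of day 8 (−1.28, adjusted p = 0.0277). The Kdr value was called without Sox17 shRNA replicate 2 of day 4 (1.38, adjusted p = 0.00824). Without Sox17 shRNA replicate 1 of day 8, Tie1 (−0.94, adjusted p = 0.0403) and Pecam1 (−0.96, adjusted p = 0.0339) were called, and without replicate 1 of day 10, Emcn (−1.11, adjusted p = 0.0216).

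Tek in the Sox17 shRNA arm was at 7.08 and 7.23 at day 6, below the control arrays at 7.82 and 7.63, and at 8.91 and 7.94 at day 8, above the control arrays at 7.67 and 7.70. Neither difference was called (−0.57, limma adjusted p = 0.259; 0.74, interval 0.20 to 1.28, adjusted p = 0.128). Without replicate 2 of day 8 in the Sox17 shRNA arm, the day 8 difference was 1.22 (adjusted p = 0.00675), a value that replicate 1 gives alone. Tie1 at day 6 was at 5.69 and 5.37 against 6.30 and 6.35 (−0.80, interval −1.54 to −0.06, adjusted p = 0.252), and Cdh5 at 6.10 and 5.43 against 6.53 and 6.17 (−0.58, adjusted p = 0.483). Both genes were lower on each Sox17 shRNA array of that day than on each control array, short of the threshold. Egfl7 at day 6 was at 8.46 and 8.26 against 8.63 and 8.84 (−0.37, adjusted p = 0.47), and its average over days 4 to 10 was −0.17 with an interval of −0.38 to 0.04. Pecam1 averaged 0.03 with an interval of −0.27 to 0.33, Tek 0.10 with −0.14 to 0.34, and Cdh5 −0.23 with −0.57 to 0.11. The 4 probe sets of Flt1 averaged −0.59 to −0.20 over days 4 to 10, and 1 of them was called lower. By its strongest probe set Flt1 was not called on average.

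**Figure D3:**
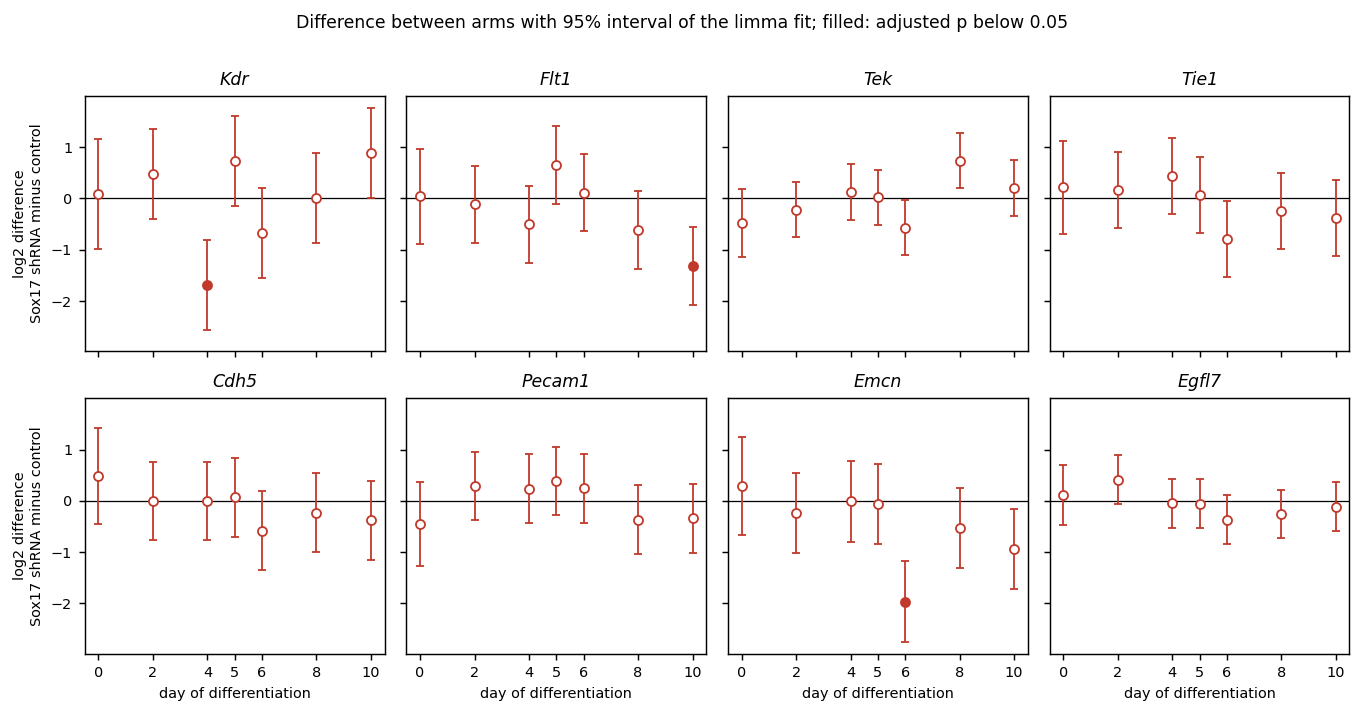
Difference in log2 level, Sox17 shRNA minus control, for each of the 8 genes on each day (1 panel a gene, common axis), with 95% intervals from limma. Filled points have an adjusted p below 0.05. They are Kdr on day 4, Emcn on day 6 and Flt1 on day 10, all below 0.

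At days 8 and 10 the replicates of the Sox17 shRNA arm stood apart in the same direction for most members, and those of the control arm lay close together. At day 8 replicate 2 was below replicate 1 for 7 of the 8 members, with a median gap of −1.10 and a range of −1.45 to 0.99, and at day 10 for 7 of 8, with a median of −0.97 and a range of −1.62 to 0.39. Flt1 was the exception on both days. Single members were already apart before: replicate 2 was 1.77 above replicate 1 for Kdr and 1.40 above it for Flt1 at day 4, and at day 6 the gaps ran from −0.97 (Pecam1) to 0.84 (Flt1), with replicate 2 lower for 6 of 8 and a median of −0.34. The same gap over all genes had an SD of 0.36 at day 8 and 0.33 at day 10 and a median near 0 (−0.02 and 0.02). In the control arm the members' gaps lay between −0.15 and 0.16 at day 8 and between −0.13 and 0.11 at day 10. Tie1 shows the pattern: at day 8 the Sox17 shRNA arrays were at 7.17 and 5.72, on either side of the control arrays at 6.70 and 6.69, and at day 10 at 5.97 and 4.73, on either side of 5.68 and 5.80. Cdh5 was at 6.97 and 5.68 against 6.48 and 6.64 at day 8, and at 6.20 and 4.88 against 5.98 and 5.86 at day 10. Pecam1 was at 6.62 and 5.46 against 6.35 and 6.47, and at 6.02 and 5.23 against 5.94 and 6.00. For these genes the mean of the arm therefore describes neither array. The fit takes 1 spread per gene over all groups, so these gaps enter the intervals of every day alike. In Sox17, replicate 2 was above replicate 1 by 0.64 and 0.47 at days 8 and 10, and by 3.86 and 2.31 at days 4 and 5. The part of Sox17 in the members' gaps was not tested.

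**Figure D4:**
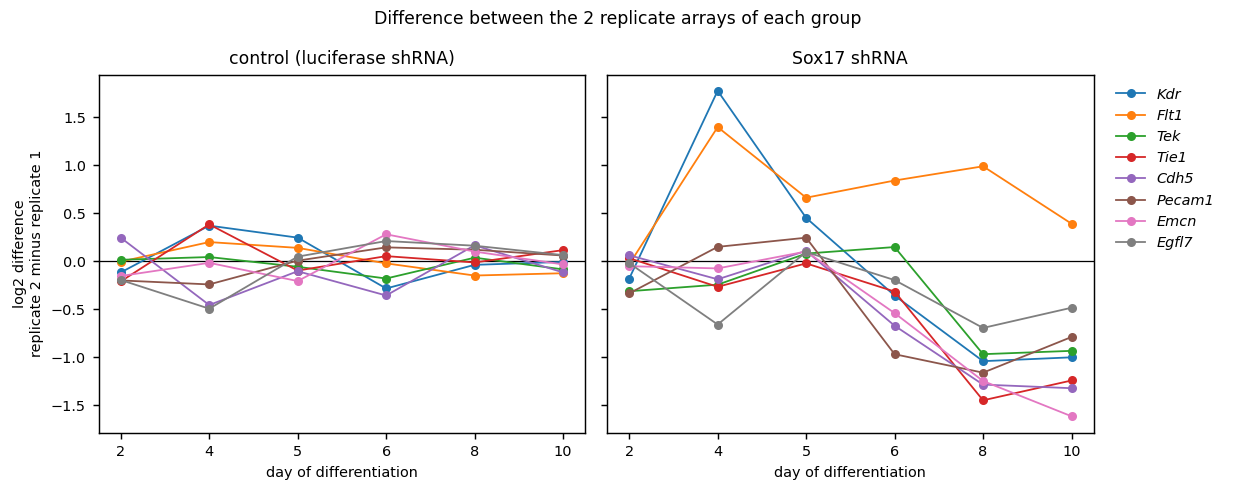
Replicate 2 minus replicate 1 in log2 level for each of the 8 genes at days 2 to 10 (drawn at equal spacing), in the control arm and in the Sox17 shRNA arm. At days 8 and 10 the Sox17 shRNA gaps lie well below 0 for all genes but Flt1, while the control gaps lie between −0.15 and 0.16.

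Other genes also differed between these arrays. Of 19 further genes of the endothelial surface that were tested, replicate 2 was lower for 16 at day 8 (median −0.45) and 15 at day 10 (median −0.34), and of 21 transcription factors of endothelium for 17 (median −0.44) and 15 (median −0.46). All 6 markers of yolk sac endoderm were lower on both days (medians −1.41 and −1.83), as were 8 and 10 of 11 blood markers (medians −0.37 and −0.66). Yolk sac markers were lower in replicate 2 on earlier days too, for 5, 5, 6 and 4 of 6 at days 2, 4, 5 and 6 (medians −1.07, −1.04, −1.08 and −0.19). Blood markers were lower for 11 of 11 at days 4 and 5 (medians −0.78 and −0.33). They were lower for only 5 of 11 at day 2 (median 0.03) and 2 of 11 at day 6 (median 0.24). Early mesoderm markers ran opposite to most members at days 8 and 10, lower for 1 and 2 of 7 (medians 0.58 and 0.62). Mural markers, of the cells around vessels, were lower for 2 and 3 of 7 (medians 0.11 and 0.02). Their part in the members' gap was not tested.

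The ligands and co-receptors of the Vegf pathway were 8 further genes, all tested. They split in direction. On average over days 4 to 10, 3 rose and 3 fell in the Sox17 shRNA arm by limma, where 14.8% of all genes were called higher and 12.2% lower, with a median of −0.16 against 0.01 over all genes. Nrp2, a co-receptor, was 2.04-fold higher (1.03, adjusted p = 2.95e-06) and the ligand Vegfc 1.44-fold higher (0.53, adjusted p = 0.0105), while the ligand Vegfa was 1.84-fold lower (−0.88, adjusted p = 3.46e-05). At day 4, when Kdr was lower, the co-receptor Nrp1 was the 1 that fell (−2.95, 7.71-fold, adjusted p = 0.0213). At day 6 only Flt4, the Vegf receptor of lymphatic and early endothelium, fell (−0.98, adjusted p = 0.00155). At day 10, when Flt1 was lower, Vegfa fell by 1.27 on the log2 scale (adjusted p = 0.00596) and Nrp2 was higher (1.06, adjusted p = 0.0118). The share of all genes called lower was 1.81% on day 4, 2.36% on day 6 and 4.38% on day 10.

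Of 5 genes around the Tie receptors, Angpt1, the activating ligand of Tek, was higher in the Sox17 shRNA arm at day 8 (0.85, limma adjusted p = 0.0137) and day 10 (0.997, adjusted p = 0.00273). Ptprb, a phosphatase that acts on Tek, was lower on both days (−0.82, adjusted p = 0.00413; −0.61, adjusted p = 0.0208). The other 3, Angpt2, Angpt4 and Dok2, were not called on either day, where 4.82% (day 8) and 10.0% (day 10) of all genes were called. Of 15 junction partners, 0 rose and 1 fell at day 6, the adhesion molecule Icam2 (−1.53, 2.89-fold, adjusted p = 0.0123), and on average 1 rose (Pard3, a polarity protein, 0.33) and 4 fell, led by Icam2 (−0.56, adjusted p = 0.0116) and the tight junction protein Ocln (−0.45, adjusted p = 7.47e-04). Their medians were −0.28 at day 6 and −0.07 on average, against 0.03 and 0.01 over all genes. The shares of all genes called were 2.84% higher and 2.36% lower at day 6, and 14.8% higher and 12.2% lower on average.

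Of 27 further genes of the endothelial surface listed, 19 were tested and 8 did not pass the filter on low values. That filter took arrays of any day, so a gene could pass through the late days alone. Of the 19, 9 had a mean above the overall median at control day 5 and 16 at day 6. The count of rises between these days is thus not independent of the filter. In the control step from day 5 to day 6, 13 of the 19 rose, 6 were not called and 0 fell, where 11.2% of all genes were called higher, with a median of 0.99, led by Calcrl (2.89, 7.40-fold) and Cd93 (2.85, 7.19-fold). In the Sox17 shRNA arm 4 rose and 1 fell (9.81% of all genes were called higher), with a median of 0.42. The difference of the steps was called for 1 of the 19, Cd93 (−2.23, limma adjusted p = 0.0469). Between the arms at day 6, 0 rose and 3 fell (2.84% of all genes were called higher and 2.36% lower): Cd93, a lectin-like receptor (−2.35, 5.09-fold, adjusted p = 4.64e-04), Cd34, a sialomucin (−1.44, adjusted p = 0.00343) and Thbd, thrombomodulin (−1.19, adjusted p = 0.0176). At day 10, 3 fell again, Esm1 (−2.84, 7.17-fold, adjusted p = 6.74e-09), Thbd (−2.52, adjusted p = 1.05e-05) and Cd93 (−1.49, adjusted p = 0.0107). The share of all genes called lower on that day was 4.38%. On average 1 rose (Ecscr, 0.51) and 7 fell, beside 14.8% and 12.2% of all genes, with a median of −0.19 against 0.01 over all genes.

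Of 21 endothelial transcription factors, Sox17 among them, 13 rose in the control step from day 5 to day 6. In that of the Sox17 shRNA arm 11 rose. Of all genes, 11.2% and 9.81% were called higher in these steps, and 0 and 1 of the factors fell. Of the 21, 15 had a mean above the overall median at control day 5 and 21 at day 6. The counts of rises are thus not independent of the filter on low values. Fli1, an ETS factor, rose 8.38-fold in the control step (3.07, limma adjusted p = 1.73e-04) and 5.11-fold in the Sox17 shRNA step (2.35, adjusted p = 0.00205). Between the arms at day 6, 5 fell, led by Mef2c (−3.32, 9.99-fold, adjusted p = 2.06e-07), Foxc2 (−1.79, adjusted p = 0.002) and Foxc1 (−1.74, adjusted p = 4.08e-04), and 2 rose, Tal1 (1.18, adjusted p = 0.00313) and Gata2 (0.999, adjusted p = 0.0236), both also factors of blood. Of all genes, 2.36% were called lower and 2.84% higher on that day. On average 9 fell, among them Sox17, the target of the hairpin, and 4 rose, beside 12.2% and 14.8% of all genes. In which cells of the cultures these factors fell or rose was not tested.

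Of 11 blood markers tested, 8 rose in the Sox17 shRNA arm, 3 were not called and 0 fell on average, where 14.8% of all genes were called higher, led by the embryonic globin Hbb-y (3.05, 8.26-fold, limma adjusted p = 3.64e-04). Their array means overlapped between the arms at day 4 (5.75 to 7.23 against 5.55 to 6.03) and day 6 (7.10 to 8.00 against 6.86 to 7.52). At day 5 they did not overlap (5.93 to 7.35 in the Sox17 shRNA arm against 5.76 to 5.81). The array mean at day 8 was 8.28 to 8.67 in the Sox17 shRNA arm against 6.96 to 7.16 in the control, and at day 10 it was 7.38 to 8.22 against 6.27 to 6.33. Of 7 mural markers, 2 rose on average, Tagln (1.07, adjusted p = 1.07e-04) and Pdgfrb (0.80, adjusted p = 0.0147), and 1 fell, Des (−0.44, adjusted p = 0.00101). Tagln was 8.57-fold higher at day 5 (3.10, adjusted p = 1.13e-04). At day 6 0 mural markers rose and 1 fell (Des, −1.005, adjusted p = 0.00462), and their array mean on that day was 8.88 to 9.35 against 8.88 to 8.94. Of 6 yolk sac endoderm markers, 0 rose and 3 fell on average, led by Cubn (−2.73, adjusted p = 6.38e-04). Of 4 trophoblast markers tested, 2 rose and 0 fell, led by Cdx2 (0.99, adjusted p = 1.33e-05), while Krt7 and Ascl2 were not called. The other trophoblast markers listed, Elf5, Prl3d1, Prl2c2, Gcm1 and Tpbpa, were not among the genes tested. Of 8 pluripotency markers, 4 rose and 0 fell on average, led by Zfp42 (1.92, adjusted p = 8.86e-06). What part the cells that carry these markers had in the members' differences was not tested. The shares of all genes called beside these counts were 14.8% higher and 12.2% lower on average, and 2.84% higher and 2.36% lower at day 6.

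Across the 14 group means (7 days in each arm), the members' profiles were compared as a description, and days and arrays are shared by all of them. Tie1 and Cdh5 were the most alike (Pearson r = 0.986), followed by Tek with Cdh5 (0.952), Tek with Tie1 (0.943), Tie1 with Emcn (0.932) and Cdh5 with Emcn (0.930). Kdr and Flt1 reached 0.707, and Kdr and Pecam1 −0.617. Among the genes that are not members, Cd93 was most like Emcn (0.992) and Tnnt2, a cardiac troponin, second (0.971). Esam, an endothelial adhesion molecule, was second for Tie1 (0.954) after Scel (0.960), and Acer2 was first for Cdh5 (0.957). Ints6 led for Tek (0.955), Sgcb for Kdr (0.937) and Pitpna for Flt1 (0.932). Mdc1 led for Pecam1 (0.974). For Egfl7 the leading genes were Arhgef15 (0.867) and Rasip1 (0.849). The mean of the 8 standardised profiles was most like Afdn (0.950), which binds junction proteins inside the cell, with Eppk1 (0.949), Hapln1 (0.948), Scel (0.942), Ints6 (0.941), Acer2 (0.939), Akap5 (0.939), Sh3d19 (0.938), Pawr (0.938) and Myocd (0.935) behind it.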

How the data were processed

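The deposited values are log2 expression levels, 1 per probe set and array. Per the submitters' processing notes the authors made them with RMA, which corrects background, quantile-normalizes the arrays and summarises probes on the log2 scale. No version or setting is given in the sources used here. Quantile normalization gives all arrays 1 distribution, so a difference is always against the other genes on that array, and RMA levels off near background, so folds against low levels are understated. The number of arrays limits the precision.

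Probe sets were named by the platform annotation: 34958 have 1 symbol, 932 several and 9211 none. By identifier, 34754 were matched to RefSeq genes (GRCm38.p6) and 0 symbols changed. Probe sets that passed the overall median (5.53) on 2 arrays or more were kept (23536), and the one with the highest mean represents a gene, which left 13297 genes. Arrays of any day counted. Tie1, Cdh5 and Emcn passed on 10, 10 and 9 arrays, all from day 6 on, so their rise is not independent of the filter. The gene lists went through the same filter.

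With limma 3.58.1 in R 4.3.3, 1 mean was fitted for each of 14 groups over all 27 arrays (13 residual and 4.68 prior degrees of freedom, with an intensity trend in the variances). The tests are two-sided, with p adjusted by Benjamini and Hochberg over the 13297 genes, and called means adjusted p below 0.05. Where an arm has 1 array, its spread is taken from the other groups. The script was tested on simulated data. SE is that of the fit. Intervals are at 95%.

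The members, gene lists and comparisons were chosen with earlier results of these data known. The named genes are the 8 members in every comparison; up to 4 genes per list and comparison, those called with the greatest difference; the 10 genes most like the mean member profile and 2 per member; and Sox17. Comparisons of day 6 with day 5, and the bioB level of 8.5 above which an array counts as high, were chosen after seeing the data. Alternatives tried were no trend, no filter, a replicate block, centred arrays, means of probe sets, a bioB term, array weights, leaving out the arrays of high actin difference, fitting only the groups compared, and leaving out each array.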

Additional observations from a re-analysis of the deposited data

Results flagged for a closer look

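Kdr stood out because its difference between the arms varied over days 4 to 10 in the moderated F test (limma adjusted p = 0.0438). The differences were −1.70 (day 4), 0.72 (day 5), −0.68 (day 6), 0.00 (day 8) and 0.90 (day 10). The call was lost without 14 of the 20 arrays in turn: each of the 10 control arrays, and the Sox17 shRNA arrays of day 5 replicates 1 and 2, day 6 replicate 2 and day 10 replicate 1 (F of 4.56 to 6.46, adjusted p = 0.0511 to 0.142 among these).

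For 3 more genes the arms stood apart in opposite directions on different days, without overlap of their arrays. With Kdr they are 4 of the 8 members, and 27.7% of all genes did the same over days 4 to 10, so such a pattern is common with 2 arrays in each arm. Flt1 differed by 0.65 at day 5 and by −1.32 at day 10, Tek by −0.57 at day 6 and by 0.74 at day 8, and Tie1 by 0.44 at day 4 and by −0.80 at day 6. The change between these pairs of days was not tested by itself. The F test over the days gave adjusted p-values of 0.144 for Flt1, 0.251 for Tek and 0.606 for Tie1. Without Sox17 shRNA replicate 1 of day 4 the F test called Flt1 (adjusted p = 0.0231), as it did without replicate 2 of that day (adjusted p = 0.0124), and without Sox17 shRNA replicate 2 of day 8 it called Tek (adjusted p = 0.0233).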

How the results depend on the processing

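Over 152 member values and 2344 recomputed ones, 2256 kept their side of the threshold, 53 lost the call, 35 gained it and 0 called values changed sign. The counts of members below are given without the share of all genes called in each refit. Without the intensity trend the F test called 0 members. With centred arrays the day 2 to day 0 control comparison called 1. With a replicate block, a bioB term or array weights, the late minus early difference called 1, Flt1 (adjusted p = 0.0392, 0.0363 and 0.0365), and array weights gave 2 in the F test (Kdr and Emcn). Without both arrays of high actin difference, 2 members were called at day 4 (Flt1 −1.20, adjusted p = 0.017, beside Kdr), 2 on average (Flt1 −0.56, adjusted p = 0.00162, beside Emcn), 1 late minus early (Kdr 1.38, adjusted p = 0.00779) and 2 in the F test. Fitted on only the groups compared, the counts were 1 at day 0 (Pecam1 −0.46, adjusted p = 0.0169), 0 at day 4, 5 for control day 5 minus day 0, 1 for the Sox17 shRNA step from day 5 to 6 (Tek), 1 for the difference of the steps (Emcn, adjusted p = 0.0225) and 0 in the F test. Leaving out 1 array gave 0 to 2 members at day 4, 0 to 1 at day 8, 0 to 1 at day 10, 1 to 2 on average (Flt1 −0.47 without Sox17 shRNA day 4 replicate 2 and −0.43 without day 8 replicate 2), 0 to 2 late minus early, 1 for control day 2 minus day 0, 1 to 3 for the Sox17 shRNA step and 0 to 3 in the F test.

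Same-numbered arrays of the arms correlated in their deviations by 0.129, 0.683, 0.22, 0.117, 0.102 and 0.099 at days 2, 4, 5, 6, 8 and 10. All were above 0, but day 10 missed the level of 0.1 asked of every day. The numbers are therefore not taken to pair the samples. At day 4, though, same-numbered arrays shared a bioB range, replicate 1 at 9.04 and 9.37 (control and Sox17 shRNA) and replicate 2 at 6.79 and 6.83. Apart from Flt1 the replicate block changed no member's call. Centring moved the median of all genes by −0.13 for control day 8 and −0.12 for day 10 against day 0, and by under 0.1 elsewhere. With 2 arrays a group, the SE of a member's difference on 1 day from day 2 was 0.23 to 0.42. Between the arms, differences well above that size were not called, such as 0.90 for Kdr at day 10 and −0.80 for Tie1 at day 6. A missing call therefore does not show equal levels.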
